A study of Saccharomyces cerevisiae with 43 samples.

Results

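The genes described here are 60 budding yeast genes for factors that assemble the large (60S) ribosomal subunit. They were chosen by locus tag from a list of named assembly factors, by a rule that uses no measured value. Earlier results of these data were known when the genes were chosen. All 60 were measured on both array designs of the study, among 5604 genes and features on the first and 6868 on the second. A symbol table gave 59 of them by their current symbol and MDN1, which it lists as REA1, by a synonym.

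The large subunit is built in the nucleolus on a long precursor rRNA. Assembly factors bind in turn, fold and cleave the RNA, place ribosomal proteins and then leave, and the particle passes through the nucleoplasm and a nuclear pore before its last factors are removed in the cytoplasm. In budding yeast the genes for these factors are known as a large, coordinately regulated group whose transcripts drop in many stresses. Most of the factors are not part of the finished ribosome.

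The study asked how a mild first stress alters the response to a later, different one. Cells were Saccharomyces cerevisiae BY4741, a haploid laboratory strain, and on the second design also nup42-delta, the same strain without the gene of a nuclear pore protein. Each of 43 spotted 2-colour arrays compared cDNA of a sample (Oyster 650 dye) with cDNA of a reference (Oyster 550 dye). On the first design, BY4741 had grown exponentially in YPD for 3 doublings. Cells without pretreatment, called naive here, were sampled 10, 20, 30 and 40 min after 0.4 mM H2O2 on 3, 3, 2 and 2 arrays, against cells from 0 min. Pretreated cells had been in 0.7 M NaCl for 60 min and then in stress-free YPD for 240 min, and were sampled at the same times on the same numbers of arrays, against pretreated and recovered cells from 0 min. Cells in 0.7 M NaCl were sampled at 15, 30, 45 and 60 min (1, 2, 2 and 1 arrays) against untreated cells. Cells 240 min after NaCl and cells 240 min after a mock treatment were each set against untreated cells on 3 arrays. The second design held 11 arrays, 1 per condition, from cells grown for at least 7 doublings, and its references are given with its results. The arrays read whole cultures, so fewer cells with a transcript and less transcript per cell cannot be told apart, and each value is relative to the other transcripts of the culture.

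Values are log2 ratios, sample over reference, so −1 is a 2-fold lower level. The base and the direction were inferred and are not stated in the labels. NUP42 itself read −5.36 and −4.75 on the arrays that set nup42-delta against BY4741, and between −0.29 and 1.23 on the other 9 arrays of the second design. Means are given with the standard error (SE) of a limma fit over all 32 arrays of the first design. A gene was called lower or higher at a Benjamini-Hochberg adjusted p under 0.05 over all genes tested in that comparison, and a gene was tested where each group had at least 2 values. Replicate 3 of naive and of pretreated cells at 10 and 20 min, 4 arrays in all, carries the array identifier series YG8, and the other 28 arrays carry YG9. The labels do not say what the series stands for. These arrays gave the lowest member median of each of their groups. In pretreated cells it was −0.87 at 10 min against −0.36 and −0.22, and −1.90 at 20 min against −1.23 and −0.67. In naive cells it was −0.32 at 10 min against 0.12 and −0.20, and −0.60 at 20 min against −0.43 and −0.51. Of the recovered arrays, replicate 2 stood apart with a member median of −0.44, against 0.22 and 0.08 on the other 2.

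In naive cells the 60S assembly genes were lower at each later time in H2O2. At 10 min 4 of 60 were called lower, where 18.5% of all genes tested were, and the members' median was −0.10. At 20 min 23 of 60 were called lower against 29.2% of all genes, with a member median of −0.47. By 30 min the count was 39 of 57 against 29.3%, with a median of −1.11. At 40 min 54 of 57 were called lower against 33.4% of all genes, with a member median of −1.90 where the median of all genes was −0.08. No member was called higher at these times, where 15.2%, 25.4%, 25.7% and 27.9% of all genes were. Without replicate 2 or 3 the count at 10 min was 2 or 1, and without replicate 2 the count at 30 min was 23. The group mean was lower at each successive time for 55 of 60 members, and for 22.9% of all genes with values.

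**Figure D1:**
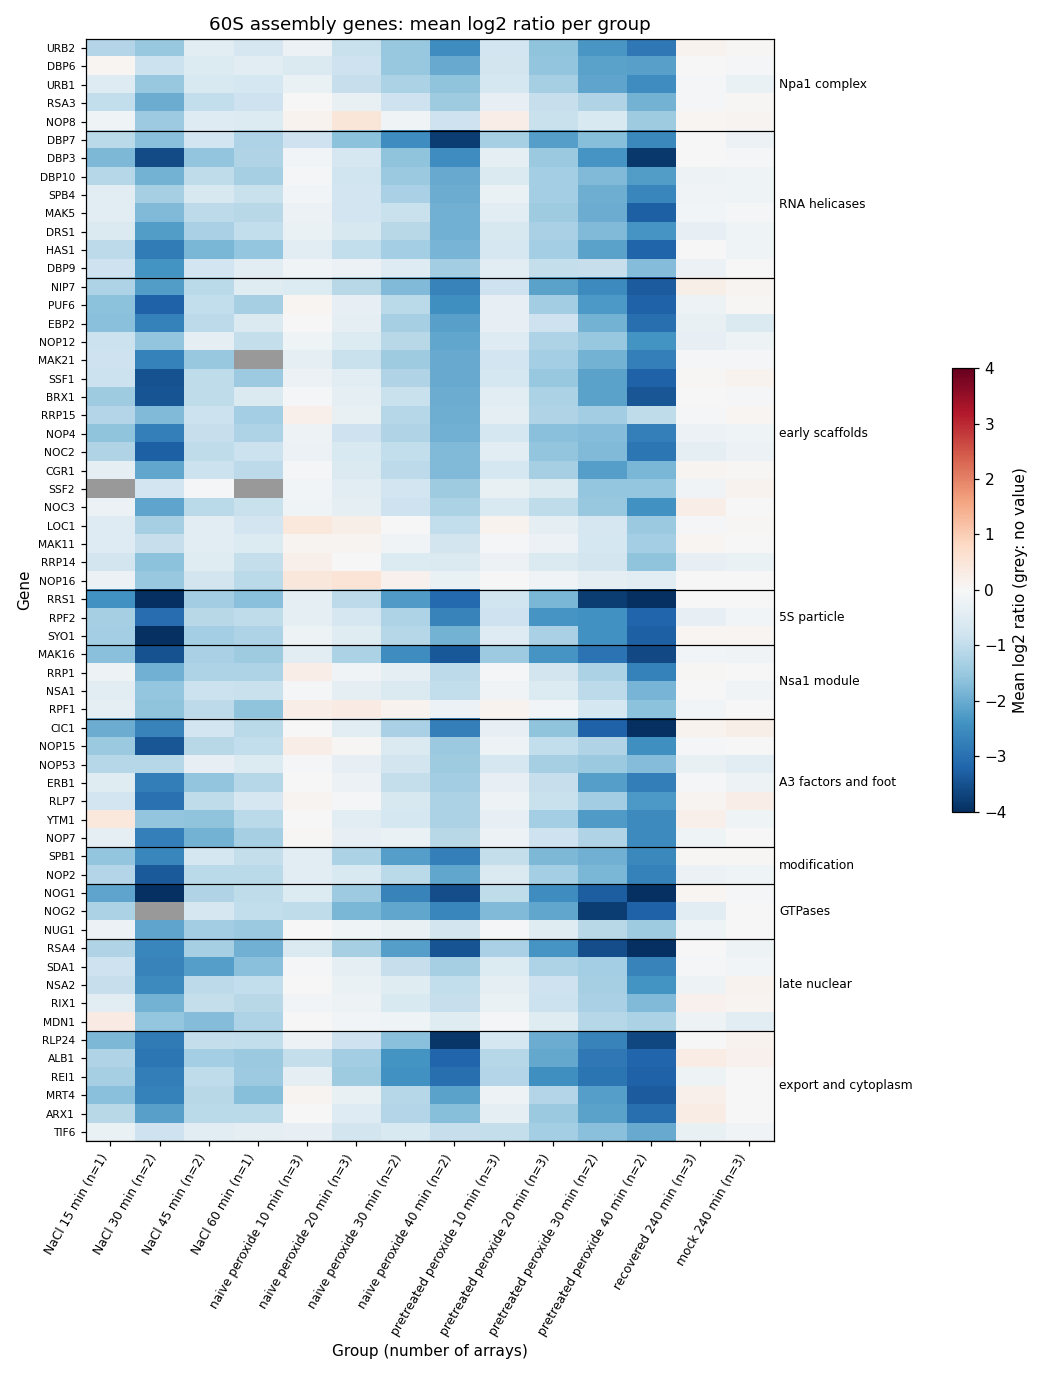
Mean log2 ratio of each of the 60 genes (rows, grouped by role and ordered by the naive mean at 40 min) in the 14 groups of the first design (columns, with the number of arrays). Blue is lower than the reference, colours end at −4 and 4, and grey marks a gene without a value. The NaCl columns, deepest at 30 min, and the later H2O2 columns are mostly blue. The naive H2O2 column at 10 min (median −0.10) and the 2 columns at 240 min are close to white.

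The GTPases NOG1 and NOG2, which act as checkpoints on maturing particles, were among the 4 lowest members at several times. NOG2 read −1.18, −1.17 and −0.73 on the 3 naive arrays at 10 min, and all 3 lay below 0. Its mean of −1.03 ± 0.24 was the lowest of the 60 at that time (limma adjusted p = 0.0033). At 20 min NOG2 read −1.97, −1.85 and −1.67, a mean of −1.83 ± 0.24 and again the lowest. NOG1 read −0.24, −0.68 and −0.73 at 10 min, then −1.32, −1.54 and −1.47 at 20 min, −2.61 and −2.72 at 30 min, and −3.14 and −3.97 at 40 min. The arrays of successive times did not overlap for NOG1. Its mean of −2.67 ± 0.30 was the lowest of the members at 30 min (limma adjusted p = 2.6e-07). NUG1, a GTPase needed for export of the particle, read −0.73 and −0.77 at 40 min, well above the other 2.

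DBP7, a DEAD-box helicase of the earliest particles, stood among the 4 lowest members at every naive time. It read −0.51, −0.86 and −1.07 at 10 min, with a mean of −0.81 ± 0.44 that was not called. At 40 min its arrays differed widely, at −2.45 and −5.12, around a mean of −3.79 ± 0.53 (limma adjusted p = 5.8e-06). The other 7 genes grouped here as helicases had 40 min means between −2.50 and −1.38, and all 8 were called lower. The helicase DBP6 is not among these 8 and is counted with the Npa1 complex. At 20 min 7 of the 8 were already called lower, all but DBP9 (−0.25).

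MAK16, a partner of RPF1 in the Nsa1 module, which joins the particle in the nucleolus, fell from −1.28 at 20 min to −2.48 at 30 min and −3.39 ± 0.39 at 40 min. Its 2 arrays at 40 min were close, at −3.27 and −3.51. The other members of the module were far higher. NSA1 averaged −0.99 and RRP1 −1.06 at 40 min, and RPF1 read −0.14 and −0.32, a mean of −0.23 ± 0.31 that was not called. Within this module of 4 proteins the 40 min means therefore spanned −3.39 to −0.23.

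The export and cytoplasmic factors held another of the lowest transcripts. RLP24, a placeholder for a ribosomal protein that is removed in the cytoplasm, read −3.04 and −4.76 at 40 min, a mean of −3.90 ± 0.38 and the lowest member at that time (limma adjusted p = 1.6e-08). REI1, which releases the export factor Arx1 in the cytoplasm, read −1.69, −1.41 and −1.21 at 20 min and −2.69 and −2.18 at 30 min. ALB1, the Arx1 partner, read −0.51, −0.66 and −1.69 at 10 min, with a mean of −0.95 ± 0.24 (limma adjusted p = 0.0036). TIF6, which keeps the subunits from joining, was the highest of the 6 at 40 min, at −0.89 and −0.98, although its mean of −0.75 at 20 min was already called lower.

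The 3 genes of the 5S particle, through which the smallest rRNA enters the subunit, were all called lower at 40 min. RRS1, which with RPF2 places that particle, read −2.94 and −3.25, RPF2 read −2.53 and −2.82, and SYO1, the chaperone that carries RPL5 and RPL11 into the nucleus, read −1.71 and −2.09. The 7 genes of the A3 group, which act on the internal transcribed spacers, had a median of −1.39 at 40 min, and CIC1 was the lowest of them at −2.35 and −3.09. None of these 7 had been called lower at 20 min. The 5 members of the Npa1 complex, which acts on the earliest particles, had a 40 min median of −1.60. URB2 was the lowest of them, at −2.13 and −2.87, and NOP8 the highest, at −0.90 and −0.78. Both methyltransferase genes, NOP2 and SPB1, were called lower at 40 min, with SPB1 at −2.33 and −3.12. The 4 late nuclear genes tested had a median of −0.94 at 40 min. RSA4, also late nuclear, was not tested there and read −3.45 on its 1 array with a value. At 20 min RSA4 was called lower, with a mean of −1.32. MDN1, the giant ATPase that pulls factors off the particle, read −0.57 and −0.39, and was called lower with a mean of −0.48.

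A few members stayed near 0 or above it early on. NOP16 read 0.73, 0.53 and 0.14 at 10 min and 0.94, 0.57 and 0.14 at 20 min, and its mean at 20 min, 0.55 ± 0.24, was the highest of the members and was not called (limma adjusted p = 0.064). LOC1, an RNA-binding protein that also acts on ASH1 mRNA, read 0.46, 0.43 and 0.40 at 10 min, a mean of 0.43 ± 0.27 that was not called. NOP8 averaged 0.49 ± 0.23 at 20 min, with all 3 arrays above 0. At 30 min the highest were NOP16 at 0.17 and RPF1 at 0.15. The 3 members tested and not called at 40 min were RRP14 (−0.57), NOP16 (−0.27) and RPF1 (−0.23).

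Pretreated cells, against their own recovered reference, also had lower means at each later time in H2O2 for most members. At 10 min 20 of 59 members were called lower, against 23.7% of all genes, with a member median of −0.46. At 20 min the count was 52 of 58 against 33.9%, with a median of −1.35. At 30 min 55 of 60 were called lower against 32.6%, with a median of −1.86. At 40 min all 55 members tested were called lower, against 33.4% of all genes, and their median was −2.70. No member was called higher at these times, where 16.6%, 26.7%, 29.7% and 29.7% of all genes were. Without replicate 3 the count at 10 min was 5, and without replicate 1 it was 13. The group mean was lower at each later time for 53 of 60 members, against 21.7% of all genes.

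**Figure D2:**
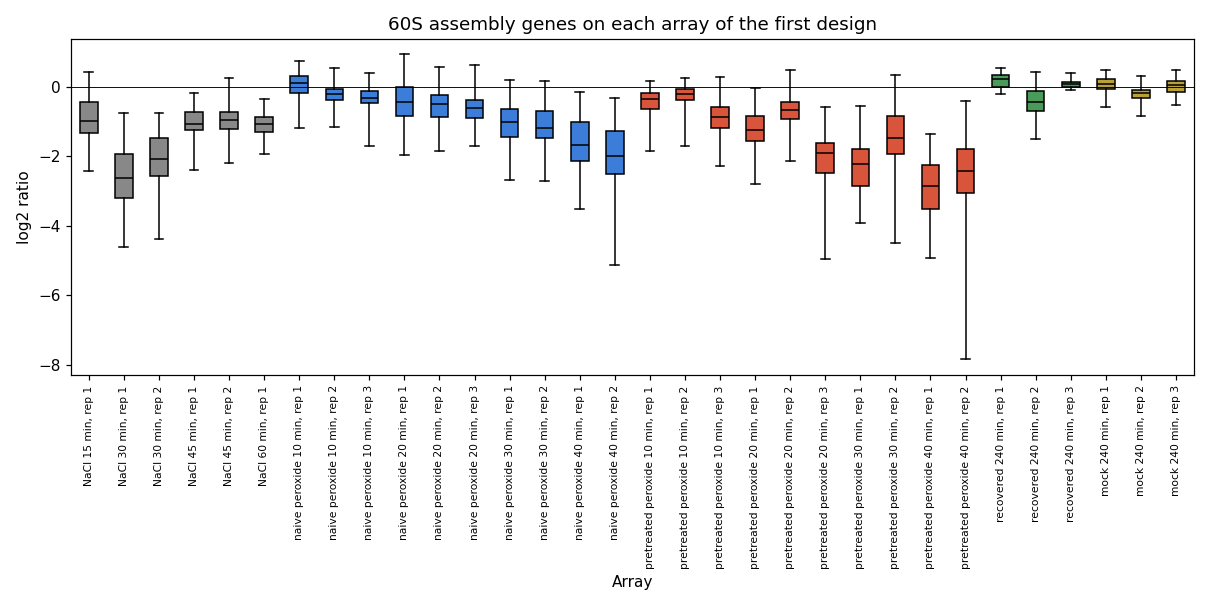
Log2 ratios of the 60S assembly genes on each of the 32 arrays of the first design, as boxes from the lower to the upper quartile with the median as a line and whiskers over the whole range. NaCl arrays are grey, naive H2O2 blue, pretreated H2O2 red, recovered green and mock yellow. Medians on the pretreated arrays at 40 min are −2.84 and −2.41, against −1.68 and −1.98 on the naive ones.

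NOG2 was the lowest member at 10 min in pretreated cells too, at −1.85 and −1.70 on the 2 arrays with a value (mean −1.77 ± 0.30, limma adjusted p = 0.00013). MAK16 read −1.79, −1.06 and −1.53 at 10 min, a mean of −1.46 ± 0.32. DBP7 (mean −1.33) and RSA4, the Mdn1 substrate (mean −1.30), were next. RPF1 (0.15) and LOC1 (0.13) were the highest tested at 10 min, and neither was called. NOP8, not tested, read 0.28 on its 1 array.

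At 20 min NOG1 read −2.31, −1.64 and −3.49 in pretreated cells, a mean of −2.48 ± 0.25 and the lowest of the members. All 3 arrays lay below every naive array of that time. REI1 read −2.80, −1.59 and −2.99, with a mean of −2.46 ± 0.27. RPF2 read −1.38, −0.79 and −4.95, so its mean of −2.37 ± 0.50 owed much to replicate 3. RSA4 averaged −2.38 ± 0.40 over 2 arrays. The 6 members tested and not called at 20 min were RRP14, NSA1, LOC1, MAK11, NOP16 and RPF1, with means between −0.59 and −0.11.

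At 30 min NOG2 read −3.10 and −4.49 and RRS1 read −3.73 and −3.85, the lowest means of the members. RSA4 followed at −3.52 and −3.58 (mean −3.55), then NOG1 (mean −3.30). Replicate 2 of this group had a member median of −1.48, against −2.23 for replicate 1. The highest were NOP16 (−0.40) and NOP8 (−0.59), neither called.

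At 40 min RRS1 read −3.86 and −7.84 in pretreated cells, so its arrays lay far apart. Its mean of −5.85 (SD 2.81, n = 2, SE 0.50 from the pooled fit) was the lowest of the members (limma adjusted p = 1.1e-09). RSA4 read −4.03 and −6.09, with a mean of −5.06 ± 0.40. CIC1 read −3.52 and −6.44, with a mean of −4.98 ± 0.42. For these 3 genes the lower value came from replicate 2, while the median member was lower on replicate 1. NOG1 was closer between arrays, at −4.91 and −4.27 (mean −4.59 ± 0.30). MAK11, a WD-repeat protein, was the highest member tested, at −1.35 and −1.38, and was called lower (limma adjusted p = 1.1e-05). NOP8 followed at −1.41 ± 0.28.

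Within pretreated cells the step from 10 to 20 min could be tested on 3 arrays per time. Of 57 members 6 were lower at 20 than at 10 min (NOG1, NIP7, REI1, DBP3, URB2 and DBP6), where 2.45% of all genes were, and none was higher, where 4.01% of all genes were. NOG1 moved by −1.47 ± 0.35 (limma adjusted p = 0.023). With the replicate number as a block the count was 12. It was 0 without replicate 1 or 2 at 10 min or replicate 3 at 20 min, 3 without replicate 1 at 20 min, 12 without replicate 3 at 10 min and 27 without replicate 2 at 20 min. In naive cells the same step gave 0 of 60 by limma, against 0.822% of all genes, with 7 members at an unadjusted p under 0.05 and a member median of −0.39.

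The direct difference between pretreated and naive cells at the same time leaned one way for nearly every member, and few single genes passed the test. At 10 min all 59 members tested had a lower mean in pretreated cells, with a median difference of −0.35. Limma called 0 of them, as it called 0% of all genes lower, and 2 had an unadjusted p under 0.05. At 20 min all 58 members tested were lower on average, with a median of −0.71. NOP8 alone was called, against 0.698% of all genes. At 30 min 55 of 57 were lower on average, with a median of −0.74, and 6 were called against 6.16% of all genes. At 40 min 49 of 52 were lower on average, with a median of −0.88, and 15 were called against 9.39%. No member was called higher in pretreated cells at these 4 times, where 0.229%, 3.06%, 2.77% and 2.54% of all genes were. The median of all genes lay between −0.07 and −0.02 in these 4 comparisons.

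Every pretreated array lay below every naive array for 13 of 54 members with all values at 10 min (9.59% of all such genes), 17 of 53 at 20 min (9.21%), 38 of 57 at 30 min (31.1%) and 33 of 52 at 40 min (31.2%). For no member did every pretreated array lie above every naive array, where 6.76%, 11.5%, 26.6% and 24.8% of all such genes did. With 2 arrays a group, groups without overlap were common among all genes.

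At 10 min MAK16 had the lowest mean difference, −0.99 ± 0.45, followed by REI1 (−0.76), NOG2 (−0.75) and RSA4 (−0.73). MAK16 read −0.24, −0.57 and −0.59 in naive cells and −1.79, −1.06 and −1.53 in pretreated cells, and the groups did not overlap. NUG1 (−0.10) and NSA1 (−0.08) differed least of those tested, and without replicate 1 of the naive cells these differences were 0.05 and 0.03.

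**Figure D3:**
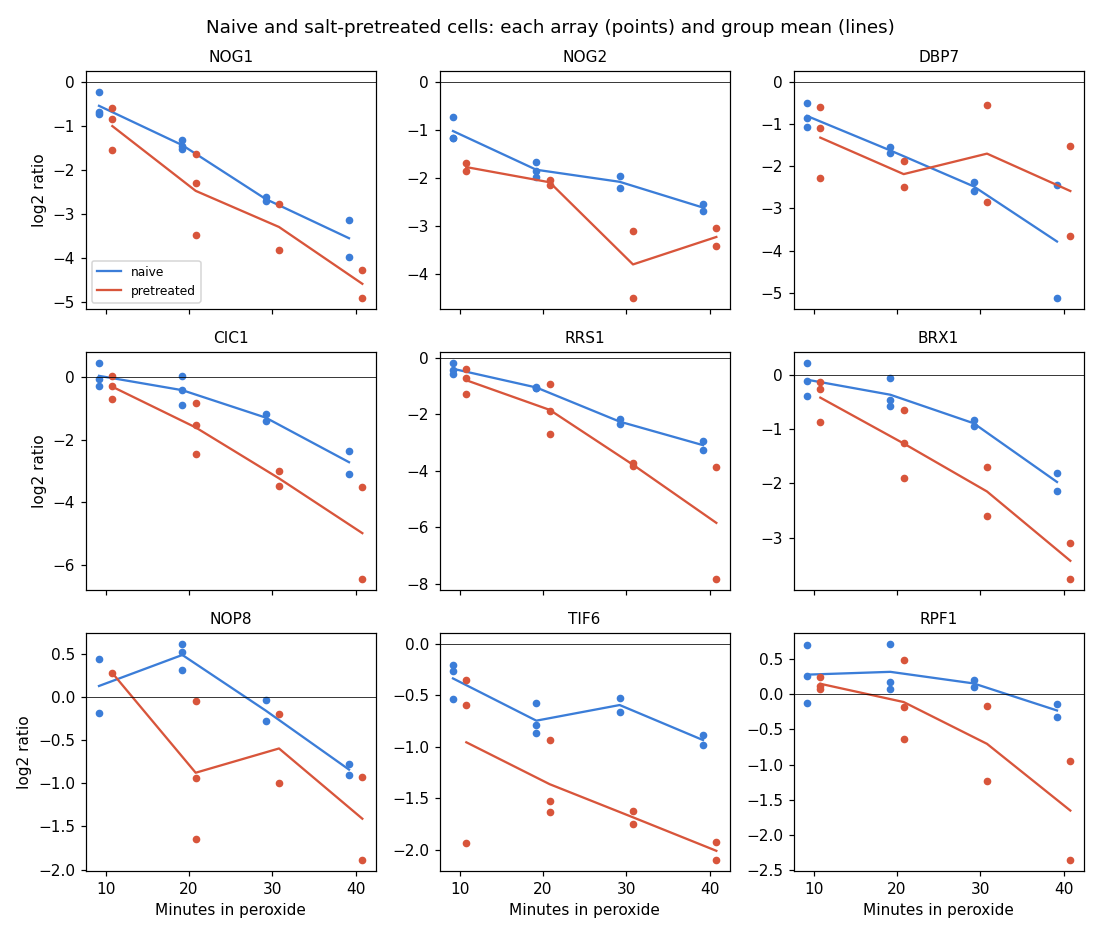
Log2 ratio against minutes in H2O2 for 9 of the genes in naive (blue) and pretreated (red) cells, each point an array and each line joining group means. Points are set apart sideways for clarity. NOG1, CIC1, RRS1 and BRX1 lie lower in pretreated cells, while for DBP7 the order of the means turns at 30 and 40 min.

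NOP8, the RNA-binding partner of Rsa3 and Dbp6, was called at 20 min. It read 0.53, 0.32 and 0.62 in naive cells and −0.94, −0.04 and −1.65 in pretreated cells. The groups did not overlap, and the difference was −1.37 ± 0.33 (limma adjusted p = 0.031). It kept the call without replicate 3 of the naive or replicate 2 of the pretreated cells and lost it without any of the other 4 arrays, with −0.98 without replicate 3 of the pretreated cells. The largest mean difference at 20 min was that of RPF2, −1.70 ± 0.71, which was not called (limma adjusted p = 0.15). CIC1 (−1.19) and RLP24 (−1.14) followed, and NSA1 (−0.18) and NOG2 (−0.26) differed least of those tested. Without replicate 3 of the pretreated cells RPF2 differed by −0.41.

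At 30 min CIC1, which binds an internal spacer of the precursor, read −1.19 and −1.41 in naive cells and −3.48 and −2.99 in pretreated cells. Its difference was −1.94 ± 0.59 (limma adjusted p = 0.043). NOG2 read −1.95 and −2.21 against −3.10 and −4.49, a difference of −1.72 ± 0.42. SYO1 (−1.27), BRX1, an early factor with a Brix domain (−1.25), ERB1, a WD-repeat partner of Ytm1 (−1.23), and MDN1 (−0.96) were also called. For all 6 the arrays of the groups did not overlap. YTM1 (−1.55 ± 0.62) and RRS1 (−1.53 ± 0.70) had larger mean differences than these last 4 and were not called. DBP7 had the highest difference, 0.78 ± 0.75, and SPB1 the next, 0.29 ± 0.48. Neither was called, and the pretreated arrays of DBP7 read −0.56 and −2.85. Without the first of these DBP7 differed by −0.37, and without replicate 2 of the pretreated cells SPB1 differed by −0.65.

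At 40 min the 6 lowest of the 15 called members were RRS1 (−2.75 ± 0.70, limma adjusted p = 0.012), CIC1 (−2.26 ± 0.59), RRP1 (−1.64 ± 0.45), BRX1 (−1.45 ± 0.35), NOP7 (−1.44 ± 0.43) and NSA2 (−1.43 ± 0.37). RRP1, of the Nsa1 module, read −0.85 and −1.27 in naive cells and −2.46 and −2.94 in pretreated cells. BRX1 read −1.81 and −2.14 against −3.76 and −3.09. NOP7, the scaffold of the Erb1 and Ytm1 complex, read −0.95 and −1.29 against −2.72 and −2.39. NSA2, a late nuclear factor, read −0.78 and −1.16 against −2.80 and −1.99. In each of these 4 genes both pretreated arrays lay below both naive ones, as they did for RRS1 and CIC1. The other 9 called were RPF1, ERB1, SYO1, DBP3, MAK5, HAS1, SDA1, NOC3 and RIX1. Without replicate 2 of the pretreated cells RRS1 was at −0.77 and CIC1 at −0.80, and neither was called. The highest differences tested were those of DBP7 (1.20 ± 0.75) and RLP24 (0.24 ± 0.53), and neither was called. RRP15 was not tested and read −1.01 on its 1 pretreated array, above its naive values of −2.02 and −1.89. Without replicate 2 of the naive cells DBP7 differed by −0.14 and RLP24 by −0.61.

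By role, against 9.39% of all genes, 3 of 3 late nuclear genes tested at 40 min were called lower in pretreated cells, 3 of 8 helicases, 3 of 7 genes of the A3 group, 2 of 3 of the 5S particle, 2 of 4 of the Nsa1 module and 2 of 12 early scaffold genes tested. None of the 6 export and cytoplasmic genes, the 5 of the Npa1 complex, the 2 methyltransferases or the 2 GTPases tested was called at that time. The members include 5 late nuclear, 17 early scaffold and 3 GTPase genes, and those with under 2 values in a group were not tested. Differences between roles were not tested, and without 1 array the total of 15 calls was 0, 8, 2 or 12.

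Single arrays weighed heavily on these counts. At 20 min the count was 28 without replicate 2 of the pretreated cells, 1 without replicate 3 of the naive cells and 0 without any other single array, and the member median lay between −1.05 and −0.42. With YG9 arrays only, the median difference at 20 min was −0.45 over 2 arrays a group, and that of the single YG8 pair was −1.43. At 10 min these were −0.30 and −0.53. Over all genes the YG8 pair had medians of −0.22 at 20 min and −0.19 at 10 min. Those of the YG9 arrays were 0.055 and −0.02. At 10 min the member median was −0.17 without replicate 3 of the pretreated cells. At 30 min the count was 0 or 2 without 1 or the other naive array, 1 without replicate 1 of the pretreated cells (median −0.35) and 13 without replicate 2 (median −1.20). At 40 min it was 0 or 8 without a naive array, 2 without replicate 1 of the pretreated cells and 12 without replicate 2, with medians from −1.10 to −0.65, and −0.42 without replicate 1 of both groups. Fitting the compared arrays alone gave 0 at 20, 30 and 40 min. Pretreated arrays were also wider over all genes, with SDs up to 1.46 against 1.35 for the widest naive array, and after the spread of all arrays was set equal the counts at these 3 times were 0 and the member medians −0.40, −0.33 and −0.49.

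Pretreated ratios are relative to recovered cells and naive ratios to untreated cells. Adding the change at 240 min of recovery to the pretreated value puts both on untreated cells. This level difference had a member median of −0.41 at 10 min and −0.76 at 20 min, and 57 of 59 and 58 of 58 members were below 0. Leaving out 1 array or replicate number moved these medians between −0.57 and −0.24 at 10 min and between −1.12 and −0.46 at 20 min. The values nearest 0 came without replicate 2 of the recovered cells at 10 min and without replicate 3 of the pretreated cells at 20 min. Limma called 0 members at either time, with 2 and 20 at an unadjusted p under 0.05, where 0% and 0.0189% of all genes were called lower and 0% and 0.208% higher. Without replicate 2 of the pretreated cells 4 were called at 20 min. RPF2 was the lowest tested at 20 min, at −2.03 ± 0.87, followed by NOC2 at −1.34 ± 0.49. Without replicate 3 of the pretreated cells these were −0.74 and −0.73.

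The same genes were low in salt alone, with values closer to 0 at 45 min than at 30 min. At 15 min the single array had a member median of −0.99, from RRS1 (−2.41), NOG1 (−2.10), CIC1 (−1.98) and DBP3 (−1.81) to MDN1 (0.33) and YTM1 (0.42). At 30 min all 55 members tested were called lower, against 27.6% of all genes, with a median of −2.54. At 45 min 41 of 57 were called lower against 19.2%, with a median of −1.03, and the count was 13 or 18 without replicate 1 or 2. No member was called higher at 30 or 45 min, where 24.6% and 18.6% of all genes were. The single array at 60 min had a member median of −1.06. Of 52 members tested 24 were higher at 45 than at 30 min, where 6.51% of all genes were, and none was lower (1.97% of all genes). The median difference between these times was 1.17. The count of 24 was 3 or 22 without replicate 1 or 2 at 30 min, 4 or 9 without replicate 1 or 2 at 45 min, and 5 after the spread of the arrays was set equal.

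NOG1 read −2.10 at 15 min, −4.31 and −4.37 at 30 min, −1.08 and −1.31 at 45 min and −1.01 at 60 min. Among the members tested it was the lowest at 30 min (−4.34 ± 0.30, limma adjusted p = 1.9e-10) and rose most by 45 min (3.15 ± 0.43, limma adjusted p = 9.4e-05). NOG2 had no value at 30 min in NaCl and could not be ranked. SYO1 read −4.60 and −3.64 at 30 min and −1.04 and −1.66 at 45 min, a rise of 2.77 ± 0.39. RRS1 read −4.34 and −3.66 at 30 min. DBP3, a helicase that speeds an early cleavage of the precursor, averaged −3.58 ± 0.28. Among the members tested DBP6 (−0.85 ± 0.21) and TIF6 (−0.82 ± 0.26) were the highest at 30 min and were still called lower. SSF2, not tested, read −0.77 on its 1 array.

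The lowest members at 45 min were others. SDA1, a late nuclear factor, read −3.13 and −2.24 at 30 min and −2.38 and −2.04 at 45 min, so the arrays of the 2 times overlapped. Its 45 min mean of −2.21 ± 0.26 was the lowest of the members (limma adjusted p = 6.8e-07). NOP7 (−1.90 ± 0.31), HAS1, a helicase of both subunits (−1.83 ± 0.21), and MDN1 (−1.72 ± 0.17) followed. MDN1 had the lowest difference between 45 and 30 min, −0.17 ± 0.24, and YTM1, which Mdn1 removes from the particle, the next, −0.02 ± 0.63. The highest at 45 min were SSF2 (−0.04 ± 0.37) and NOP53, which brings the exosome to the spacer RNA (−0.34 ± 0.33), neither called. SDA1 and HAS1 were not among the 4 lowest members at any time in H2O2.

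After 240 min of recovery no member was called different from untreated cells. Recovered cells had a member median of −0.04, between −0.43 for NOG2 and 0.30 for ARX1. NOG2 read 0.18, −1.49 and 0.02, and its mean without replicate 2 was 0.10. NOC2 (−0.39), DRS1 (−0.33) and RPF2 (−0.33, or 0.21 without replicate 2) were next, and ALB1 (0.29) was the second highest. Mock-treated cells had a median of −0.03, from EBP2 (−0.57), MDN1 (−0.43), NOP53 (−0.41) and URB1 (−0.28) to CIC1 (0.24) and RLP7 (0.25). Recovered minus mock had a member median of −0.01, with 30 of 60 members below 0, between −0.43 for NOG2 and 0.37 for YTM1. Limma called 0 of 60 members in each of these 3 comparisons, against 0% of all genes in either direction, and 0, 1 and 0 members had an unadjusted p under 0.05. The SE of the recovered mean was 0.24 for NOG2 and 0.50 for RPF2, and differences of that size were not detectable with these arrays.

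Several members are relatives of each other or of ribosomal proteins. SSF1 and its paralog SSF2 both act early, and SSF2 had no value on several arrays, so it was tested in fewer comparisons. At 30 min in pretreated cells SSF1 read −2.76 and −1.54 and SSF2 −2.58 and −0.52. In NaCl at 45 min SSF1 read −1.12 and −0.93 and SSF2 −0.34 and 0.25. Whether spots of near-identical genes share signal was not tested. RLP24 averaged −3.90 in naive cells at 40 min, where RPL24A and RPL24B, the genes of the ribosomal protein that replaces it, averaged −1.11 and −1.41. In pretreated cells at 40 min RLP24 averaged −3.66, and RPL24A and RPL24B −2.70 and −2.79. MRT4, the placeholder for the stalk protein of RPP0, averaged −2.15 in naive and −3.33 in pretreated cells at 40 min, against −0.71 and −2.53 for RPP0. RLP7, a relative of ribosomal protein L7, averaged −1.27 in naive cells at 40 min, against −1.77 for RPL7A and −1.68 for RPL7B. These are differences from each gene's own reference level and say nothing of levels between genes.

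Other genes of ribosome production were also low. Of 31 other 60S assembly genes, 24 of 30 tested were called lower in naive cells at 40 min (median −1.32, lowest ECM1 at −3.66). Of the small-subunit processome, 49 of 55 were lower and 1 higher (median −1.72, lowest UTP15 at −3.78). All 10 RNA polymerase I genes were lower (median −2.11, lowest RPA12 at −4.05), as were 71 of 77 large-subunit ribosomal protein genes (median −1.34, lowest RPL22B at −3.03). Of 7 regulators of these genes 4 were lower and 2 higher, with SCH9, a growth-signalling kinase, the lowest at −1.83. In naive cells at 20 min 3 of 79 ribosomal protein genes were lower and 1 higher, with a median of −0.06, where the assembly genes had a median of −0.47. Pretreated minus naive at 40 min had a median of −1.61 over ribosomal protein genes, with 69 of 71 lower, against −0.88 and 15 of 52 for the assembly genes. The small-subunit processome, with 14 of 50 and a median of −0.91, was closer to them, and RNA polymerase I had 4 of 8. The pretreated ratios in these differences are relative to recovered cells. Against untreated cells, recovered cells had a median of 0.35 over ribosomal protein genes and −0.04 over the assembly genes. The level difference, on untreated cells, had medians of 0.09 and −0.41 for these 2 lists at 10 min. At 20 min they were −0.33 for ribosomal protein genes and −0.76 for the assembly genes. In NaCl at 30 min the ribosomal protein genes had a median of −1.80 and the processome −2.14, against −2.54 for the assembly genes. Differences between lists were not tested. No 2 members are neighbours in the genome, and 7 lie beside a gene of another of these lists, such as RSA3 beside UTP13 and NSA2 beside LCP5.

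On the second design each condition had 1 array, so no difference has a replicate check and no test was made. A member is counted where it lay past 2-fold. The BY4741 arrays and that of untreated nup42-delta had untreated BY4741 as reference. The H2O2 arrays of nup42-delta had pretreated and recovered nup42-delta as reference. By its source name the NaCl array of nup42-delta had pretreated and recovered BY4741, while its description speaks of basal levels in nup42-delta. NUP42 read −4.75 on that array and −5.36 on untreated nup42-delta against BY4741. On the H2O2 arrays with a nup42-delta reference NUP42 read between 0.17 and 1.23. By these values the strain of the NaCl reference was BY4741, and they do not show whether it was recovered. Because references differ, ratios are compared only between arrays of 1 reference. Pretreated and naive arrays of a strain share their reference here, unlike on the first design. Their difference is thus one of levels, and its counterpart on the first design is the level difference.

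**Figure D4:**
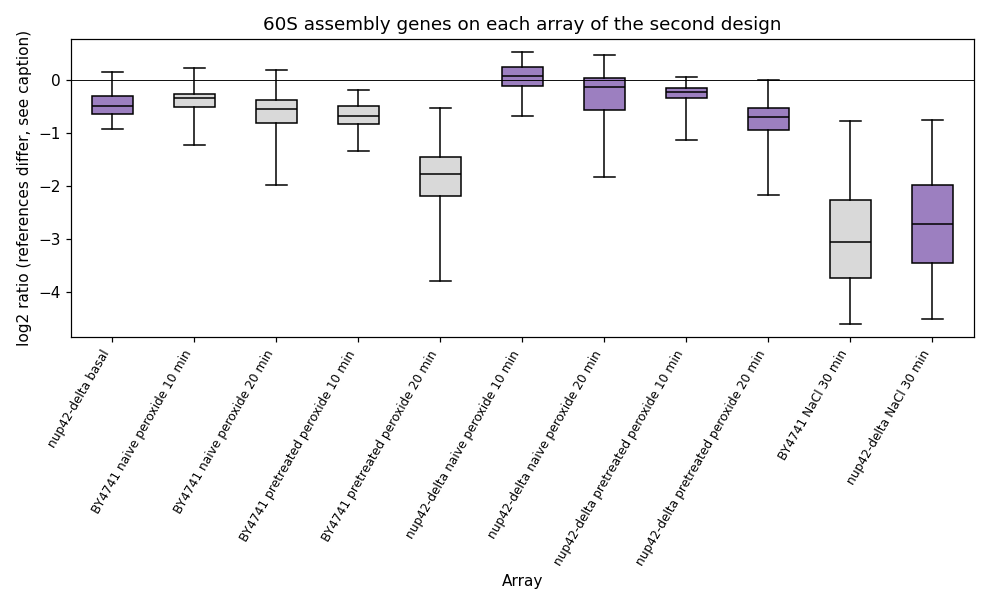
Log2 ratios of the 60 genes on each of the 11 arrays of the second design, as boxes from the lower to the upper quartile with the median as a line and whiskers over the whole range, grey for BY4741 and purple for nup42-delta. References were untreated BY4741 for the first 5 arrays and BY4741 in NaCl, and recovered nup42-delta for its 4 H2O2 arrays. By its source name the array of nup42-delta in NaCl had recovered BY4741. Medians run from 0.09 for naive nup42-delta at 10 min to −3.05 for BY4741 in NaCl.

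Without any stress, 59 of 60 members read lower in nup42-delta than in BY4741, with a median of −0.48. None lay past 2-fold lower, where 1.22% of all genes did, and 20 lay past 1.5-fold lower, where 4.98% of all genes did. RSA4 was the lowest, at −0.92, and LOC1 the only member above 0, at 0.15. The processome genes had a median of −0.50 on this array and the large-subunit ribosomal protein genes −0.27. A single array cannot separate the strain from the culture.

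In BY4741 the naive member medians were −0.34 at 10 min and −0.54 at 20 min, and 2 and 11 members lay past 2-fold lower against 2.90% and 3.79% of all genes. In pretreated BY4741 they were −0.68 and −1.77, and 5 and 54 members lay past 2-fold lower against 4.90% and 15.3%. ALB1 read −0.96 at 10 min and −1.99 at 20 min in naive cells, and −1.30 and −3.80 in pretreated cells. NOG2 read −1.22 and −1.73 in naive cells, and −1.30 and −3.62 in pretreated cells. NOP16 read −0.02 and 0.11, and then −0.20 and −0.53. ALB1 and NOG2 were thus low, and NOP16 high, among the members on this design as well.

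The difference between pretreated and naive BY4741 had a member median of −0.25 at 10 min, with 57 of 60 below 0 and 1, URB1 at −1.03, past 2-fold lower (2.55% of all genes). REI1 was the highest, at 0.12. At 20 min all 60 were below 0, with a median of −1.19 and 42 past 2-fold lower (9.05% of all genes). CGR1, a nucleolar factor, differed most, at −2.66, from −0.91 in naive to −3.57 in pretreated cells. SPB1 (−2.22), MAK16 (−2.13) and REI1 (−2.03) were next, and NOG2 differed by −1.89. RPF1 (−0.42) and MAK11 (−0.49) differed least.

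In nup42-delta, on its own reference, the naive member medians were 0.09 at 10 min and −0.13 at 20 min, and the pretreated ones −0.22 and −0.70. At most 14 members lay past 2-fold lower on any of these arrays, on the pretreated array at 20 min (4.31% of all genes). The difference between pretreated and naive cells was below 0 for all 60 members at both times, with medians of −0.33 and −0.54, and none lay past 2-fold lower (1.67% and 1.59% of all genes). CIC1 differed most at 20 min, at −0.91, and TIF6 least, at −0.06. CGR1 differed by −0.51, SPB1 by −0.28 and NOG2 by −0.16.

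**Figure D5:**
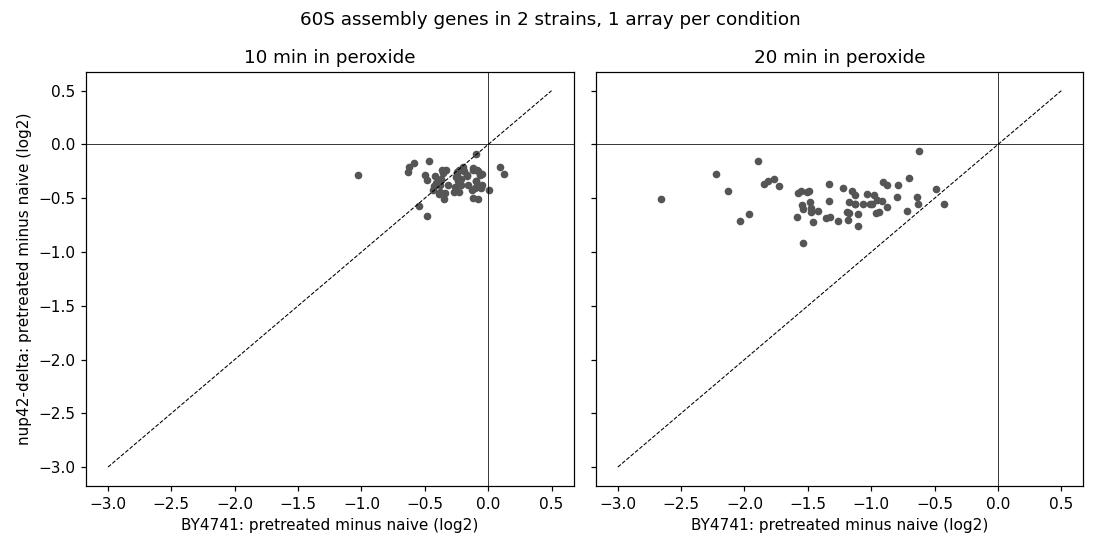
Pretreated minus naive log2 difference of each 60S assembly gene in BY4741 (horizontal) and nup42-delta (vertical) at 10 min (left) and 20 min (right) on the second design, with a dashed line where both are equal. At 20 min 59 of 60 points lie left of the line, which is a larger negative difference in BY4741, and at 10 min 20 do.

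At 20 min the difference was more negative in BY4741 than in nup42-delta for 59 of 60 members, against 50.4% of all genes, with a median gap of −0.63. RPF1 was the exception, at 0.13, and CGR1 had the widest gap, −2.15. At 10 min 20 of 60 members were more negative in BY4741 (46.2% of all genes), with a median gap of 0.09. Over all genes the pretreated BY4741 array at 20 min was also wider than its naive partner, with SDs of 1.22 and 0.80, where those of nup42-delta were 0.88 and 0.85. After each array was scaled to the same spread, the member medians at 20 min were −0.46 in BY4741 and −0.44 in nup42-delta, and 28 of 60 members were more negative in BY4741. At 10 min 5 of 60 were.

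NaCl for 30 min gave the lowest values of this design. In BY4741 59 of 60 members lay past 2-fold lower (18.2% of all genes), with a median of −3.05. In nup42-delta, against recovered BY4741 by the source name, 59 also did (16.3%), with a median of −2.72. NOG1 read −4.61 and −4.28, RRS1 −4.59 and −4.51, and TIF6, the only member within 2-fold on either array, −0.77 and −0.74. Because the references differ, these 2 arrays are given side by side without a difference.

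The 2 designs can be set beside each other for BY4741. Over 59 members with values, the NaCl 30 min mean of the first design and the array of the second correlated at Pearson's r = 0.87 and Spearman's rho = 0.85, beside 0.92 and 0.89 over 5455 genes on both. For naive H2O2 at 20 min they correlated at 0.84 and 0.82 over 60 members, beside 0.79 and 0.73 over all genes on both, and at 10 min at 0.67 and 0.57, beside 0.53 and 0.37. The points share the gene and its place in the dye orientation, and no p is given for them. In NaCl at 30 min NOG1 had the lowest mean of the 59 members with values on the first design. It also had the lowest member value on the BY4741 array of the second. Its 2 arrays of the first design read −4.31 and −4.37 beside −4.60 and −3.64 for SYO1. NOG2, without a value on the first design, read −4.45 on that array of the second, beside −4.61 for NOG1.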

How the data were processed

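Transcripts were measured on 32 arrays of a first design (14 groups) and 11 of a second (1 array a condition), and the 60 genes, roles and other lists were chosen with earlier results of these data known. The deposited values are log2 ratios of channel 2 over channel 1, base and direction inferred. Per the labels' protocols, RNA was extracted with hot phenol and labelled through amino-allyl dUTP; the sources used here name no scanner, background correction or normalization. No dye swap stands in the labels, so a constant dye effect enters ratios against 0 and the level difference but cancels between arrays. Depth is unknown for ratios, and the number of arrays limits precision. Missing values were 5.76% on the first design and 2.03% on the second.

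Group means were fitted with limma 3.58.1 (lmFit, eBayes) in R 4.3.3 over all 32 arrays, with 2-sided p-values adjusted over all genes tested and no imputation. The fit was tested on simulated data, whose settings and outcome are not given here. It is not stated that replicates came from separate cultures, so p-values measure only the spread between samples, which may be technical. Symbols came from RefSeq, assembly R64. Named in each tested ratio and each tested pretreated-minus-naive difference were the 4 lowest and 2 highest of the members tested, and every member called in such a difference, or the 6 lowest where over 10 were called, with the relatives SSF1, SSF2, RLP7, RLP24 and MRT4. Other members given with values, those of single arrays and of the second design included, were chosen after their values were seen. Replicate numbers paired samples at 10 and 20 min within naive cells (correlations of deviations 0.41 to 0.52) and within pretreated cells (0.40 to 0.63). Between naive and pretreated cells replicate 3, of series YG8, was paired too (0.40 at 10 min and 0.56 at 20 min). Replicates 1 and 2 were not paired between them at both times (−0.002 to 0.27). Alternatives are in the closing section. Sequences were not used here.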

Additional observations from a re-analysis of the deposited data

Results flagged for a closer look

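The following differences between pretreated and naive cells passed a test of the difference itself at the same time in H2O2. At 20 min 1 member did, NOP8 (−1.37), where 0.698% of all genes were called lower. At 30 min 6 of 57 did, where 6.16% of all genes were called lower: CIC1 (−1.94), NOG2 (−1.72), SYO1 (−1.27), BRX1 (−1.25), ERB1 (−1.23) and MDN1 (−0.96). At 40 min 15 of 52 did, where 9.39% of all genes were called lower, of which the lowest were RRS1 (−2.75), CIC1 (−2.26), RRP1 (−1.64), BRX1 (−1.45), NOP7 (−1.44) and NSA2 (−1.43). Every one of these genes was lower in pretreated cells. CIC1, SYO1, BRX1 and ERB1 passed at both 30 and 40 min. At 40 min the pretreated arrays lay far apart for RRS1 (−3.86 and −7.84) and CIC1 (−3.52 and −6.44). Both differences at that time owed much to replicate 2. No group had enough arrays for a single array to be tested as an outlier.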

How the results depend on the processing

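Counts below are members called lower, unless higher is stated. Centring each array on its median left every count within 1.5 times the reported one. Equalising the spread of the 32 arrays gave 0 for pretreated 20 minus 10 min and for pretreated minus naive at 20, 30 and 40 min, 1 lower and 3 higher after recovery, 4 after mock treatment and 5 higher for NaCl 45 minus 30 min. Fitting only the compared arrays gave 13 for pretreated cells at 10 min and 0 for the same 4 differences. Keeping only genes valued on all 32 arrays, which leaves 37 members, gave 2 for naive cells at 10 min, 35 at 40 min, 13, 33 and 34 for pretreated cells at 10, 20 and 30 min, and 0 for pretreated minus naive at 20 min. With the replicate number as a block, pretreated 20 minus 10 min gave 12. Pretreated minus naive at 20 min, where the numbers do not pair all samples, gave 4. With the array series as a block these were 15 and 8. The block moved no other count by over 1.5 times.

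Leaving out 1 array or 1 replicate number gave 1 to 3 for naive cells at 10 min, 23 to 30 at 30 min, 5 to 19 for pretreated cells at 10 min, 0 to 27 for pretreated 20 minus 10 min, 13 to 18 for NaCl at 45 min, 1 to 22 higher for NaCl 45 minus 30 min, and 0 to 4 for the level difference at 20 min. Pretreated minus naive gave 0 to 28 at 20 min, 0 to 13 at 30 min and 0 to 12 at 40 min, while over all alternatives the member median ran from −0.52 to −0.17 at 10 min, −1.05 to −0.40 at 20 min, −1.25 to −0.27 at 30 min and −1.20 to −0.42 at 40 min. A group left with 1 array was assumed to vary like the others.

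The sign turned for members near 0 or with arrays far apart. Over the same omissions pretreated minus naive ran from −0.37 to 1.92 (30 min) and −0.14 to 2.53 (40 min) for DBP7, −0.65 to 1.23 for SPB1 (30 min), −0.85 to 1.34 for RLP24 (40 min), −0.20 to 0.032 for NSA1 and −0.29 to 0.12 for NUG1 (10 min). In pretreated cells NOP16 ran from −0.34 to 0.11 at 20 min and −1.12 to 0.33 at 30 min, and RPF1 from −0.41 to 0.15 at 20 min, or 0.021 with the spread equalised. After recovery NOG2 ran from −0.73 to 0.10 and RPF2 from −0.66 to 0.21, and SSF2 in NaCl at 45 min from −0.34 to 0.25.

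On the second design a 1.5-fold threshold gave 4 members for BY4741 pretreated minus naive at 10 min (6.91% of all genes), 1 and 20 for nup42-delta at 10 and 20 min (4.60% and 5.85%), and 20 for untreated nup42-delta (4.98%). The next alternatives were chosen after seeing the data. YG9 arrays alone gave 2 for naive and 10 for pretreated cells at 10 min, 1 for pretreated 20 minus 10 min and 0 for pretreated minus naive at 20 min, with NOP16 at 0.11 and RPF1 at 0.15 in pretreated cells at 20 min. Equalising the spread of the 11 arrays gave 1 for BY4741 pretreated minus naive at 20 min in place of 42, 1 for nup42-delta at 10 min and 24 for untreated nup42-delta. The cause of these shifts was not tested, except that fewer members or arrays enter some by construction. The planned promoter motif search was not run.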
